A study of Rattus norvegicus with 12 samples.

Results

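Bdnf, Ntrk2 and Vgf encode a secreted neurotrophin, its receptor and a peptide precursor that neurotrophins induce, and their transcripts were followed in the motor cortex of 12 rats. The genes were taken by identifier: Bdnf as ENSRNOG00000047466, Ntrk2 as ENSRNOG00000018839 and Vgf as ENSRNOG00000001416. All 3 identifiers were among the 16534 features of the table. The pairing of identifier and symbol came with this rule, and none of the tables used here links Ensembl identifiers to symbols, so it was not checked against an annotation.

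The rats formed 4 groups of 3. Control rats (labelled ctrl) had neither lesion nor stimulation in their labels, and PD rats belonged to a model of Parkinson's disease made with 6-OHDA, a toxin that catecholamine neurons take up. Stimulated control rats (stim on ctrl) and stimulated PD rats (stim on PD) had the motor cortex driven through a graphene electrode array; the stated schedule is 130 Hz for 1 hour each day over 2 weeks, and the sources used here do not say whether it also held for stimulated controls. The 6 rats of the PD and stimulated PD groups are termed lesioned, and the other 6 rats unlesioned. Strain, sex, age, hemisphere, the extent of the lesion, and any sham surgery or sham array are not stated in the labels.

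Brain-derived neurotrophic factor, the product of Bdnf, is made as a precursor, sorted into secretory vesicles of excitatory cortical neurons and released with activity; cortical axons also carry it to the striatum. It binds TrkB, the receptor tyrosine kinase encoded by Ntrk2, whose full-length form signals in neurons and whose truncated form without the kinase domain is made in astrocytes as well. Vgf was named as a gene that nerve growth factor induces. It encodes a granin-like protein of dense-core vesicles that is cut into several signalling peptides, and its transcription rises with neurotrophins and with neuronal activity. Gene-level values add up all transcript forms, so the promoter used for Bdnf and the form of TrkB cannot be read from them. In bulk tissue, fewer cells of a type and less RNA per cell cannot be told apart.

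Bdnf and Vgf are both known targets of CREB, the factor that binds the cyclic AMP response element (CRE). Their estimates had opposite signs between lesioned and unlesioned rats and the same sign under stimulation. Of these estimates only that of Bdnf over all lesioned and unlesioned rats had a limma adjusted p under 0.05. The bases upstream of their starts are shown, and a role of CREB was not tested. The RefSeq table (build GRCr8) held 6 start windows for Bdnf, 1 for Vgf and 0 for Ntrk2, and the 250 bases before each start were searched on both strands. The motifs were TGACGTCA (full CRE), CGTCA (short CRE site, which the full CRE contains on both strands), CACGTG (E-box) and TGACTCA (AP-1 site). Capitals mark the matches, and both sequences run 5′ to 3′ toward the start.
Bdnf, chr3:116637608-116637857, plus strand: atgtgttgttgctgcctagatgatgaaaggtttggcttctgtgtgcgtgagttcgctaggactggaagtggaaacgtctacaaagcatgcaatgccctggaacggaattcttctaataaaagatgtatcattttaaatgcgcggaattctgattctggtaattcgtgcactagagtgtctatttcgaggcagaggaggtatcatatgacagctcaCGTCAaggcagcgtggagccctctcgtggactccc
Vgf, chr12:25277021-25277270, minus strand: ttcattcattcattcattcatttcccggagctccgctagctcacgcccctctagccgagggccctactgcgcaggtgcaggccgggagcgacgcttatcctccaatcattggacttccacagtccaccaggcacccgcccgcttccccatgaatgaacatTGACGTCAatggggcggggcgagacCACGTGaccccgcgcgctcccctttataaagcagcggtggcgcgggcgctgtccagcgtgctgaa

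The Vgf window held a full CRE from -90 to -83 and an E-box from -65 to -60, counted from the base before the start as -1. A full CRE was present in 1.59% of the 33469 windows in the table and an E-box in 5.59%. Of the 6 Bdnf windows only the 1 printed had a match, a short CRE site from -35 to -31. As 18.2% of all windows hold that site, the count of 1 match among 6 windows is near the background. The Bdnf windows that begin at bases 116639552 and 116639608 overlap, so the 6 windows are not separate. All matches given here are matches of letters in a window, and whether a site is used was not tested. The deposited values do not separate transcripts by their start.

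Libraries held 42905441 to 62082830 counted reads. The level of a gene is given as CPM, its reads scaled to the total of counted reads of the library. Bdnf rested on 448 to 1757 reads a library, Vgf on 2901 to 6323 and Ntrk2 on 21922 to 51306. The counting error (the square root of the reads) was at most 4.72% of the Bdnf value, 1.86% of the Vgf value and 0.675% of the Ntrk2 value; it covers counting alone. Between rats of a group the coefficient of variation was 11.4% to 46.9% for Bdnf and 9.12% to 22.7% for Ntrk2, so the spread between rats exceeded counting error in every group for these genes. For Vgf it was 0.807% in controls, below the counting error, and 5.36% to 27.7% in the other groups.

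Some libraries stood apart over all features. PD rat 2 had the highest score on the first principal component (58.2), while PD rat 1 scored -28.5 on the second component, beyond the stimulated PD rats (-24.5 to -19.5) and away from PD rats 2 and 3 (41.2 and 9.66). The 10 most abundant features took 9.68% to 12.3% of reads in lesioned and 7.64% to 8.71% in unlesioned libraries, so CPM of other features was measured against a different composition in lesioned rats. The labelled tissue could not be checked against cell type markers, because 0 of the 252 genes listed as pathway members or markers could be matched to an identifier.

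Lesioned rats had more Bdnf, the ligand, than unlesioned rats. Control rats 1 to 3 stood at 13.5, 14.2 and 11.4 CPM, and PD rats 1 to 3 at 37.3, 19.3 and 16.2 CPM. Every PD rat lay above every control rat, and 29.1% of all features separated these groups in either direction. PD rat 1 was far above the other 11 rats. Stimulated control rats stood at 8.60, 13.7 and 7.92 CPM, and stimulated PD rats at 17.97, 15.8 and 12.2 CPM. In the stimulated pair stimulated PD rat 3 was below stimulated control rat 2, so these groups overlapped.

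**Figure D1:**
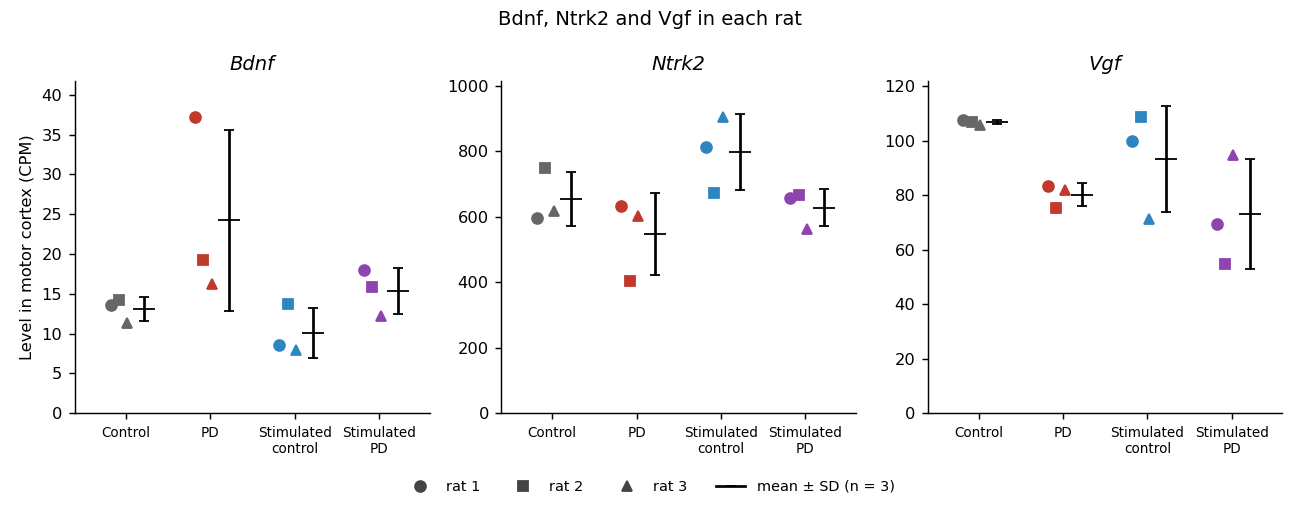
Levels of Bdnf, Ntrk2 and Vgf in CPM (vertical axes, each from 0) in the 4 groups (horizontal axis); each marker is 1 rat, its shape the rat's number, and the black bar is the mean ± SD (n = 3). Bdnf lay higher and Vgf lower in all 3 PD rats than in all 3 control rats, and the Ntrk2 values of these groups overlapped. Of all features, 29.1% separated PD from control rats in either direction.

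By group, Bdnf averaged 13.0 ± 1.49 CPM in control, 24.3 ± 11.4 CPM in PD, 10.1 ± 3.14 CPM in stimulated control and 15.3 ± 2.92 CPM in stimulated PD rats (SD, n = 3). The order of these means from low to high was stimulated control, control, stimulated PD and PD, and each neighbour in that order overlapped the next. PD rats overlapped neither control nor stimulated control rats. The share of all features without overlap was 29.1% for PD against control rats, and was not computed for PD against stimulated control rats.

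Both pairs together, the 6 lesioned rats had 1.62-fold more Bdnf than the 6 unlesioned rats, on the log2(CPM + 0.5) scale that all fold changes here use (log2 difference 0.69, SE 0.20, 95% interval 0.25 to 1.14, limma adjusted p = 0.0314 over 14985 features). Exact permutation of the lesion labels, kept within each pair, gave p = 0.01 (two-sided; 0.005 is the smallest it can give). Of the 3 genes, 1 passed in this comparison, where 23.0% of all features were called, so the count of members is near the background. PD rat 1 was not needed for the call: without it the log2 difference was 0.52 with a limma adjusted p of 0.0394.

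The call was close to the threshold and was lost in 7 of the 12 fits that left out 1 library. It was lost without control rat 1, 2 or 3 (limma adjusted p = 0.0613, 0.0543 and 0.0661), without stimulated control rat 1 or 3 (0.0702 and 0.0805) and without stimulated PD rat 1 or 2 (0.0740 and 0.0521). Without control rat 1 or 2 the estimate itself rose, to 0.71 and 0.73, with an SE of 0.23 in both fits. Features called over the whole table fell from 3451 to 1950 and 2149 in these fits. In the other fits that lost the call the estimate fell, to between 0.62 and 0.68. The estimate stayed positive, between 0.52 and 0.81, when any 1 of the 12 libraries was left out. It passed under all 10 other settings, with adjusted p from 0.000936 with DESeq2 to 0.0363 without a variance trend in limma.

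Within the unstimulated pair, Bdnf was 1.72-fold higher in PD than in control rats, which missed the threshold (log2 difference 0.78, SE 0.29, interval 0.15 to 1.41, limma adjusted p = 0.126). The exact permutation test gave p = 0.1, the smallest that 3 rats against 3 allow. DESeq2 called Bdnf in this pair (log2 difference 1.05, adjusted p = 0.0126), and limma without PD rat 1 gave a log2 difference of 0.43 (adjusted p = 0.232). Within the stimulated pair Bdnf was 1.52-fold higher in stimulated PD than in stimulated control rats (log2 difference 0.61, interval -0.02 to 1.24, limma adjusted p = 0.205). The interaction, which asks whether the lesion difference changes with stimulation, was -0.18 (interval -1.07 to 0.71, limma adjusted p = 0.907). That interval is too wide to show equal differences in both pairs.

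Stimulation went with lower Bdnf values in both pairs, without passing the test. Stimulated PD rats differed from PD rats by a log2 value of -0.57 (interval -1.20 to 0.06, limma adjusted p = 0.308; exact permutation p = 0.2), and stimulated control rats from control rats by -0.39 (interval -1.02 to 0.24, limma adjusted p = 1.00; exact permutation p = 0.3). Averaged over both pairs the difference was -0.48 (interval -0.93 to -0.04, limma adjusted p = 0.348; exact permutation within lesioned and within unlesioned rats p = 0.05). PD rat 1 carried much of it: without that library the stimulated PD minus PD difference was -0.22 and the average -0.30. In unlesioned rats the difference was -0.62 without stimulated control rat 2 and -0.25 without stimulated control rat 3. Stimulated PD rats stood 0.21 above controls (interval -0.42 to 0.84, limma adjusted p = 0.688); without stimulated PD rat 1 the value was 0.094, without control rat 3 0.12 and without stimulated PD rat 3 0.36.

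Ntrk2, the receptor gene, had smaller estimates between lesioned and unlesioned rats than Bdnf, and no comparison of it passed the test. Control rats 1 to 3 stood at 595, 749 and 618 CPM, and PD rats at 634, 406 and 604 CPM. PD rat 2 was the lowest of all 12 rats, and the other PD rats lay within the range of the controls. Stimulated control rats stood at 815, 673 and 907 CPM, and stimulated PD rats at 657, 667 and 563 CPM. All 3 stimulated PD rats lay below all 3 stimulated control rats, by as little as 667 against 673 CPM. Of all features, 41.4% separated these groups in either direction.

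The Ntrk2 means were 548 ± 124 CPM in PD, 629 ± 57.3 CPM in stimulated PD, 654 ± 82.9 CPM in control and 798 ± 117 CPM in stimulated control rats (SD, n = 3), from low to high, and each neighbour in that order overlapped the next. Lesioned rats were lower than unlesioned rats by a log2 difference of -0.31 (SE 0.13, interval -0.58 to -0.03, limma adjusted p = 0.0957; exact permutation within strata p = 0.06). The difference was -0.28 in the unstimulated pair (limma adjusted p = 0.367), and there -0.072 without PD rat 2 and -0.17 without control rat 2. In the stimulated pair it was -0.34 (limma adjusted p = 0.246). With TMM scaling factors, which correct for composition, the difference over both pairs was -0.18 (limma adjusted p = 0.292), with -0.13 in the unstimulated and -0.23 in the stimulated pair.

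Under stimulation the Ntrk2 estimates were positive in both pairs, the opposite sign to those of Bdnf. The log2 difference was 0.28 in unlesioned rats (interval -0.10 to 0.67, limma adjusted p = 1.00) and 0.22 in lesioned rats (interval -0.16 to 0.61, limma adjusted p = 0.467). In lesioned rats it was 0.019 without PD rat 2 and 0.34 without PD rat 1, and in unlesioned rats 0.19 without stimulated control rat 3. The average over both pairs was 0.25 (interval -0.02 to 0.53, limma adjusted p = 0.372; exact permutation p = 0.08) and 0.15 without PD rat 2, and the interaction was -0.06 (interval -0.61 to 0.48, limma adjusted p = 0.949). Stimulated PD and control rats differed by -0.05 (interval -0.44 to 0.33, limma adjusted p = 0.885), a sign that turned to 0.022 with TMM factors.

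Vgf, the neurotrophin-induced peptide precursor, had lower values in lesioned rats. Control rats 1 to 3 stood at 107.5, 107.0 and 105.8 CPM, and PD rats at 83.5, 75.3 and 81.7 CPM. The controls were nearly equal and every PD rat lay below them, a separation found for 29.1% of all features in either direction. Stimulated control rats stood at 99.8, 108.8 and 71.3 CPM, and stimulated PD rats at 69.4, 54.9 and 94.9 CPM. Here stimulated control rat 3 was below every other unlesioned rat and stimulated PD rat 3 above every other lesioned rat, so the stimulated groups overlapped. All stimulated PD rats lay below all control rats, where 41.4% of all features separated in either direction.

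From high to low, Vgf averaged 107 ± 0.862 CPM in control, 93.3 ± 19.5 CPM in stimulated control, 80.2 ± 4.30 CPM in PD and 73.1 ± 20.2 CPM in stimulated PD rats (SD, n = 3), and each neighbour in that order overlapped the next. Lesioned rats were 1.31-fold lower than unlesioned rats, just short of the threshold (log2 difference -0.39, SE 0.13, interval -0.68 to -0.10, limma adjusted p = 0.0538; exact permutation within strata p = 0.04). It passed when stimulated control rat 3 was left out (limma adjusted p = 0.0345), and also when stimulated PD rat 3 was (0.0224). With TMM factors the difference was -0.26 (limma adjusted p = 0.238). TMM factors move the median log2 difference of all features from -0.12 to 0.0017 in this comparison, and with it the share of lower features among those called from 78.3% to 51.9%. Relative to the median of all features as deposited, Vgf differed by -0.27, Ntrk2 by -0.19 and Bdnf by 0.82.

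Pair by pair, Vgf in PD rats differed from control by -0.41 (interval -0.82 to -0.0027, limma adjusted p = 0.205), and in stimulated PD rats from stimulated controls by -0.36 (interval -0.77 to 0.05, limma adjusted p = 0.239). With TMM factors the PD minus control value was -0.27. The value in the stimulated pair was -0.18 without stimulated PD rat 2, -0.57 without stimulated PD rat 3 and -0.24 without stimulated control rat 2. Stimulated PD rats stood at 0.669 of the control level, the widest difference of Vgf among the 8 comparisons (log2 difference -0.58, SE 0.19, interval -0.99 to -0.17, limma adjusted p = 0.137). Exact permutation gave p = 0.1 for this pair, the smallest it allows. Stimulation shifted Vgf by -0.17 in lesioned rats (interval -0.58 to 0.24, limma adjusted p = 0.603) and by -0.22 in unlesioned rats (interval -0.63 to 0.19, limma adjusted p = 1.00). Single libraries carried these values. In unlesioned rats the shift was -0.035 without stimulated control rat 3 and -0.34 without stimulated control rat 2. In lesioned rats it was 0.018 without stimulated PD rat 2 and -0.37 without stimulated PD rat 3. The average was -0.19 (interval -0.48 to 0.10, limma adjusted p = 0.466), and -0.10 without stimulated control rat 3 or without stimulated PD rat 2 and -0.29 without stimulated PD rat 3. The difference between the shifts of both pairs, the interaction, was 0.05 (interval -0.53 to 0.63, limma adjusted p = 0.962).

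**Figure D2:**
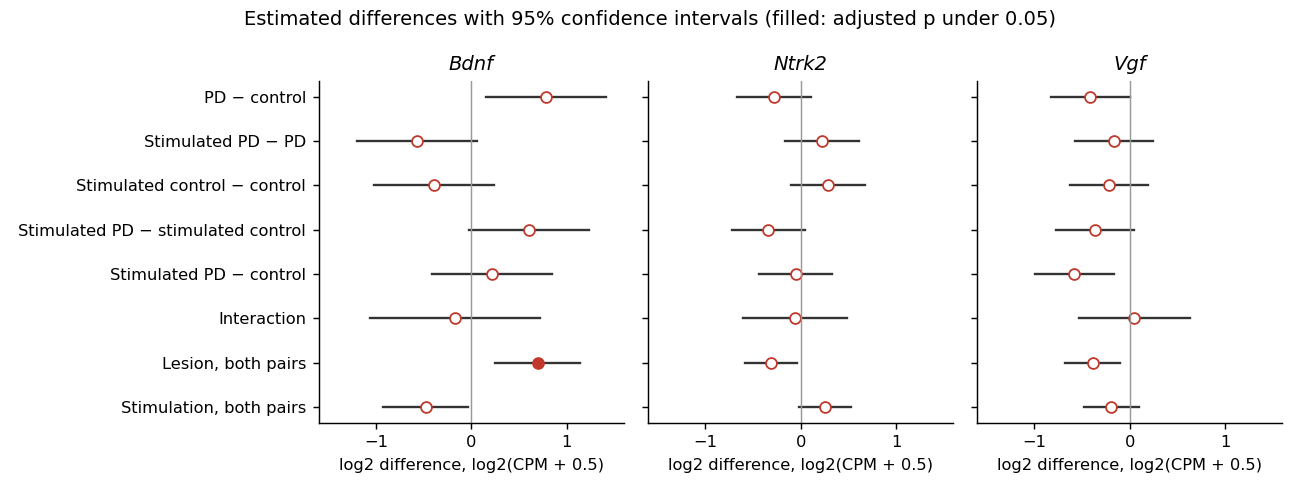
Estimated log2 differences (horizontal axes, log2(CPM + 0.5) scale) with 95% confidence intervals for Bdnf, Ntrk2 and Vgf in 8 comparisons (vertical axis); a filled point has a limma adjusted p under 0.05. The filled point is Bdnf in lesioned against unlesioned rats, at 0.69; Bdnf lies right and Vgf left of 0 in every comparison of a lesioned group with an unlesioned one.

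Set against all features, the calls and the separation of groups were as follows. Of the 3 genes, 0 were called in PD against control, where 4.38% of features were called, 0 in the stimulated pair (1.45%) and 0 in stimulated PD against control (0.0334%). Libraries of PD and control rats did not overlap for 2 of the 3 genes, Bdnf and Vgf, and for 29.1% of all features. In the stimulated pair this held for Ntrk2 alone (41.4% of features), and in stimulated PD against control for Vgf alone (also 41.4%). For stimulated PD against PD and for stimulated control against control, 0 of the 3 genes separated, against 14.2% and 8.88% of features. In both of these comparisons, in the interaction and in the average stimulation difference, limma called 0% of features; unadjusted p-values under 0.05 were found for 2613, 268, 619 and 2057 features in that order. edgeR also called 0 in these 4, and DESeq2 907, 0, 30 and 289.

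**Figure D3:**
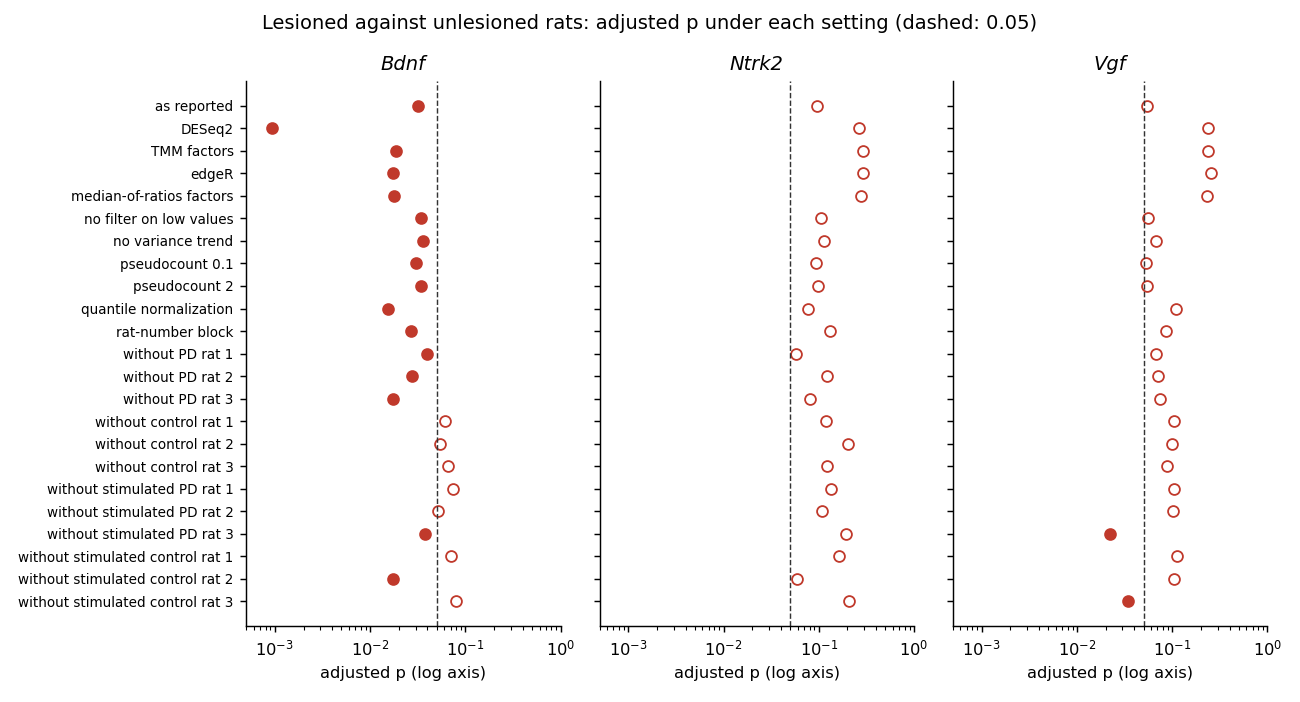
Adjusted p (horizontal axes, log scale; dashed line at 0.05) of the difference between lesioned and unlesioned rats for Bdnf, Ntrk2 and Vgf as reported, under 10 other settings and without each of the 12 libraries (vertical axis). Filled points are under 0.05: Bdnf passes as reported and under all 10 other settings but in 5 of 12 fits without 1 library, Ntrk2 never passes, and Vgf passes in 2 fits, those that leave out stimulated control rat 3 and stimulated PD rat 3.

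Because all genes of a library share its scaling, the ratio of 2 genes within a rat does not depend on it. These ratios were chosen after the values were seen and are given without a test. The ratios of Bdnf set a gene with higher values in lesioned rats against genes with lower estimates there. That choice favours separation of lesioned from unlesioned rats, which adds no support beyond the values of the single genes. The share of gene ratios that separate was not computed. The log2 ratio of Bdnf to Vgf was -2.99, -2.91 and -3.22 in control rats 1 to 3 and -1.16, -1.96 and -2.33 in PD rats. It was -3.54, -2.99 and -3.17 in stimulated control rats and -1.95, -1.79 and -2.96 in stimulated PD rats. All lesioned rats lay above all unlesioned rats within each pair, though stimulated PD rat 3 exceeded stimulated control rat 2 by little and lay below control rat 2.

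The log2 ratio of Bdnf to Ntrk2, ligand to receptor, was -5.46, -5.72 and -5.76 in control rats and -4.09, -4.39 and -5.22 in PD rats. In stimulated control rats it was -6.57, -5.62 and -6.84, and in stimulated PD rats -5.19, -5.40 and -5.53. Lesioned and unlesioned rats again did not overlap within either pair, in a ratio chosen with both estimates known. Stimulated PD rats lay below PD rats 1 and 2, and stimulated PD rat 1 lay just above PD rat 3, so these groups overlapped. The ratio of Ntrk2 to Vgf ranged from 2.43 to 3.602 in lesioned and from 2.47 to 3.67 in unlesioned rats, with no separation.

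**Figure D4:**
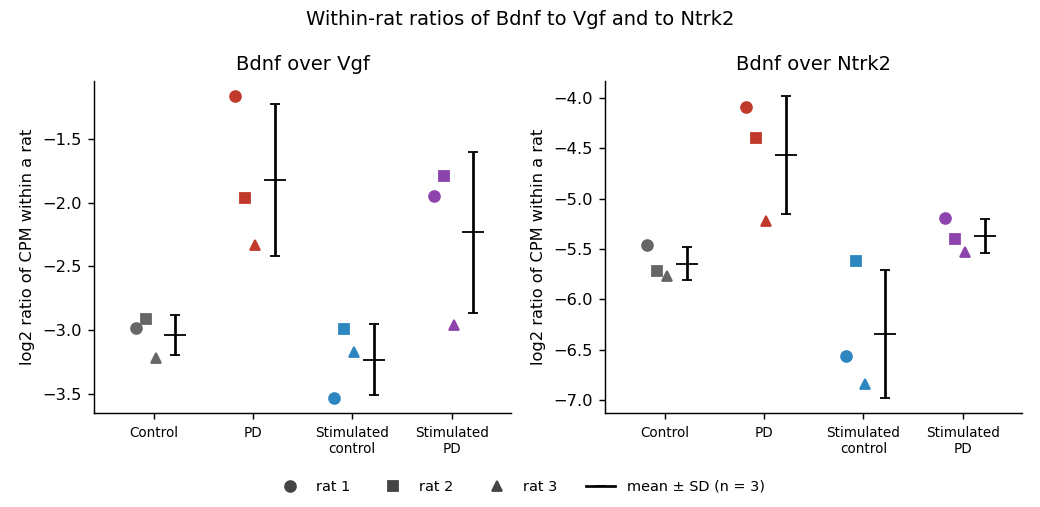
Log2 ratios of CPM within each rat, Bdnf to Vgf (left) and Bdnf to Ntrk2 (right), by group; each marker is 1 rat and the black bar the mean ± SD (n = 3). In both panels the PD rats lie above the control rats and the stimulated PD rats above the stimulated control rats. Of the lesioned rats, stimulated PD rat 3 lies closest to the unlesioned rats. The ratios were chosen with the values of the genes known, which favours this separation.

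Correlations between the genes were measured over all 12 rats, with 3 pairs of genes computed. They mix differences between groups with variation between rats of a group, and the permutations shuffled rats across groups. Deviations from the group means describe the variation within groups and were given no test. Bdnf and Ntrk2 had a Pearson r of -0.50 (permutation p = 0.101, adjusted over the 3 pairs 0.303) and a Spearman rho of -0.41 (permutation p = 0.190, adjusted 0.446). Without PD rat 1 and stimulated control rat 3, the rats farthest from the median of Bdnf, r was -0.58 (permutation p = 0.0798). Without PD rat 1 alone r was -0.72 (permutation p adjusted over the 3 pairs 0.0354), and without stimulated control rat 3 alone -0.33. Between the deviations from the group means r was 0.14, with the sign turned.

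Bdnf and Vgf had r = -0.23 (permutation p = 0.476, adjusted 0.714) and rho = -0.33 (permutation p = 0.298, adjusted 0.446). With TMM factors r was -0.0071, with median-of-ratios factors -0.017 and with quantile scaling -0.11. Without the same pair of rats r was -0.60 (permutation p = 0.0679), without stimulated control rat 3 alone -0.42, and within groups the deviations gave r = 0.11. Ntrk2 and Vgf had r = 0.04 (permutation p = 0.897, adjusted 0.897) and rho = -0.0070 (permutation p = 0.991, adjusted 0.991), with r = 0.08 (permutation p = 0.836) without PD rat 2 and stimulated control rat 3, and -0.35 for deviations within groups. None of the 3 relations passed the adjusted test over all 12 rats.

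**Figure D5:**
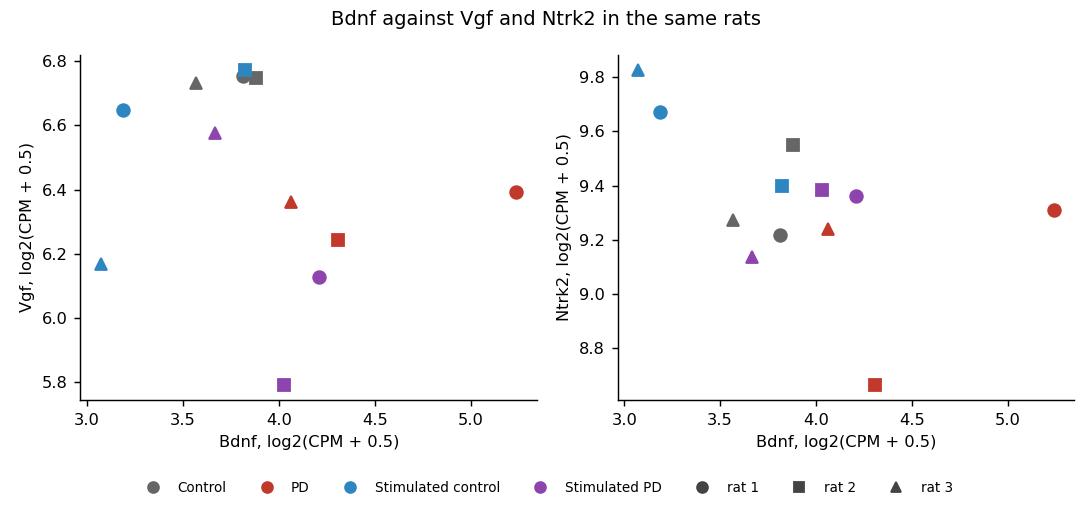
Vgf (left) and Ntrk2 (right) against Bdnf in the same 12 rats, both axes as log2(CPM + 0.5); colour gives the group and shape the rat's number. PD rat 1 stands alone at the right; with all 12 rats r is -0.23 for Vgf and -0.50 for Ntrk2.

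Among the 11729 other features averaging 5 CPM or more, many followed each gene more closely than these genes followed each other. The highest r over the 12 rats was 0.93 with Bdnf, 0.98 with Ntrk2 and 0.90 with Vgf, and the lowest was -0.95, -0.97 and -0.93. The central 95% of features spanned -0.78 to 0.72 for Bdnf, -0.81 to 0.89 for Ntrk2 and -0.64 to 0.63 for Vgf. Ntrk2 and Vgf both lay inside the span for Bdnf, at -0.50 and -0.23. These are descriptions over 12 libraries that share depth and composition, and the closest features are not named because their identifiers have no symbol here.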

How the data were processed

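Messenger RNA libraries from the motor cortex of 12 rats, 3 in each of 4 groups, were made with a stranded kit, per the labels' protocols. The submitters' processing notes list Trim Galore, STAR and featureCounts, and the assembly mRatBN7.2, without versions. No source used here gives the annotation release or the strand setting of the counting. Values were deposited as CPM, calculated by the authors. Within a tolerance of 0.001 read, 100% of values in each library were whole reads, and library totals were recovered from the step. No value is 0. All 12 columns were matched to rats by description, and 0 were left over.

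limma (3.58.1, R 4.3.3) was fitted with a variance trend to log2(CPM + 0.5) of all 12 libraries, each group having its own coefficient. The 14985 features averaging 0.5 CPM or more were tested, two-sided, with Benjamini-Hochberg adjustment over them; an adjusted p under 0.05 counts as called. Lesion and stimulation differences over both pairs are means of the 2 pair contrasts. Permutation tests were added for single values. The exact tests between 2 groups used scipy (1.17.1). Exact tests within strata and, for correlations, tests with random permutations were computed without its permutation routine. edgeR (4.0.16) and DESeq2 (1.42.0) were run on the recovered reads as alternatives, besides other pseudocounts, scalings and filters, 2-group fits, a block of rat numbers and fits without each library. Only limma as reported and edgeR were run on simulated counts, with changes set in the PD rats alone, and the outcome is not given here. DESeq2 and the other settings were not run on simulated counts.

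The genes and lists were chosen with earlier results of these data known. The rule for naming genes took these 3 genes, the features most and least correlated with each, and members of 19 gene lists; since 0 identifiers have a symbol in the tables used here, the rule named only the 3. Titles number the rats of a group, so libraries are separate animals. The title numbers did not pair them across groups. Windows before gene starts are RefSeq sequences of build GRCr8, matched by symbol for 2 of the 3 genes.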

Additional observations from a re-analysis of the deposited data

Results flagged for a closer look

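In each set of 6 rats formed by joining 2 of the study's groups (lesioned, unlesioned, stimulated, unstimulated), the highest and lowest rat was compared with its neighbour, on the CPM and the log2(CPM + 0.5) scale. Of 24 such sets over the 3 genes and both scales, 6 had a rat whose gap to the next exceeded Dixon's 95% critical value. Chance gives this in about 1 of 20 separate sets of a single group. These sets share rats and repeat each gene on 2 scales, so the count cannot be held against that rate. The 6 come from 1 rat for each of the 3 genes. PD rat 1 stood apart for Bdnf at 37.3 CPM, with a gap of 0.717 of the range among lesioned and 0.694 among unstimulated rats; on the log2 scale it did not. PD rat 2 stood apart for Ntrk2 at 8.67 on the log2 scale (0.659 of the range among lesioned and 0.626 among unstimulated rats), and not in CPM. Stimulated control rat 3 stood apart for Vgf among unlesioned rats on both scales, at 71.3 CPM (0.759 of the range) and 6.17 on the log2 scale (0.794).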

How the results depend on the processing

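For the 24 combinations of 3 genes and 8 comparisons, 543 values were recomputed: 516 kept their sign and side of the threshold, 7 lost the call, 3 gained it and 17 changed sign. The 7 losses were all of Bdnf in lesioned against unlesioned rats without 1 library (log2 difference 0.62 to 0.73 in those 7 fits, and 0.52 to 0.81 over all 12). Vgf in that comparison ran from -0.49 to -0.30 without 1 library. DESeq2 called Bdnf in PD against control (1.05). Ntrk2 in stimulated PD against control changed sign with TMM factors (0.022), median-of-ratios factors (0.017), edgeR (0.014) and DESeq2 (0.0097), and ran from -0.12 to 0.048 without 1 library. The interaction of Vgf was -0.0037 with median-of-ratios factors; without 1 library it ran from -0.16 to 0.23, that of Bdnf from -0.41 to 0.18 and that of Ntrk2 from -0.27 to 0.056. Vgf in stimulated PD against PD ran from -0.37 to 0.018. The correlation of Ntrk2 and Vgf was -0.16 with TMM, -0.19 with median-of-ratios and -0.15 with quantile scaling, and -0.15 to 0.23 without 1 rat; that of Bdnf and Ntrk2 was -0.72 to -0.33 without 1 rat. The causes of these changes were not tested.

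A block of rat numbers changed no call of the 3 genes (Bdnf in lesioned against unlesioned rats 0.69, limma adjusted p = 0.0267). Same-numbered rats did not deviate together: r was -0.46 to 0.36 over 18 pairs, and 2 of 12 libraries lay closest to a rat of their own number. These are the numbers of the titles. The column names number all PD rats and stimulated PD rat 3 otherwise, so a pairing that follows the column names was not tested. Features called with the block were 282 in PD against control, 2 in the stimulated pair, 2 in stimulated PD against control and 2707 in lesioned against unlesioned rats, against 657, 217, 5 and 3451 without it. Over all other settings these counts ran from 295 to 2037, 12 to 2161, 5 to 2861 and 3225 to 4366, and without 1 library from 4 to 976, 2 to 2256, 2 to 1227 and 1881 to 4608. In stimulated PD against PD, limma called up to 2943 features without 1 library (PD rat 1), and in the average stimulation difference up to 534. A fit of only the compared groups gives no value for the interaction or for differences over both pairs. Lower features were 93.6% of the calls in PD against control, and 79.2% with TMM and 68.1% with quantile scaling; in lesioned against unlesioned rats they were 78.3%, 51.9% and 44.2%; in the stimulated pair 69.6%, 58.3% and 36.2%. Counting error was at most 4.72% of a value of the 3 genes; its part in the width of the intervals was not tested.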
